A study of Gallus gallus with 858 samples.

Results

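Single cells of the chick cranial ectoderm were compared here in 2 classes, cells that expressed the zinc finger gene ZIC1 but hardly any SOX10, and cells with a high SOX10 level. They were 14 ZIC1-positive and 69 SOX10-high cells, 83 in all, at ss11 and 9 ZIC1-positive and 46 SOX10-high cells, 55 in all, at ss15, where ss is the somite stage, and together 16.1% of the 858 single-cell libraries of the series. The members were chosen by their own readout. A cell was kept with at least 500000 reads and 1000 genes, and counts were scaled to 1000000 reads per cell (CPM). Both classes had GATA3, a gene of the placodal ectoderm, under 10 CPM. ZIC1-positive cells had ZIC1 at 10 CPM or more and SOX10 under 20 CPM, and SOX10-high cells had SOX10 at 100 CPM or more. Every gene of a cell was therefore measured in the same library as the 3 genes that placed it, and no test between the classes was made: all differences are given as description.

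The cells came from chick embryos electroporated at the head fold stage with a plasmid in which the Pax2E1 enhancer drives EGFP, so that the reporter is transient and reaches only part of the cells. EGFP-positive cells were sorted one by one into plates, from embryos of 11 to 12 somites for ss11 and of 14 to 15 somites for ss15, and full-length transcripts were amplified by SmartSeq2, a method without molecular identifiers. The cells of both classes at a stage were sorted together, and the labels name no embryo, so that each stage is 1 sample and a difference between embryos cannot be seen.

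The neural plate folds into the neural tube, and neural crest cells form along its border with the ectoderm. Genes of the ZIC and PAX families are switched on in this border and stay active in the dorsal neural tube. Crest cells then turn on factors of the FOXD, TFAP2 and SOXE families, give up their epithelial junctions and migrate, and SOX10 stays on in the crest lineages that make glia, neurons and pigment cells. The ectoderm beside the border forms the placodes, among them the otic placode, the origin of the inner ear, which also uses SOX8 and SOX10.

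Median depth was 1021940 reads in ZIC1-positive cells and 1045870 reads in SOX10-high cells at ss11, and 969592 and 880269 reads in the same order at ss15. Fewer genes were detected per cell in the ZIC1-positive class, with medians of 4453.5 genes against 5079 in SOX10-high cells at ss11 and of 4090 genes against 5259 in SOX10-high cells at ss15. EGFP reads were found in 4 of 14 ZIC1-positive cells and 29 of 69 SOX10-high cells at ss11, and in 0 of 9 ZIC1-positive cells, which allows a share of up to 33.3%, and 18 of 46 SOX10-high cells at ss15. All cells had passed the EGFP gate of the sort. No pair among the 508 kept cells of the 2 stages was near-identical, the highest correlation of log2 expression being 0.88.

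The ZIC1 and SOX10 gates fell in sparsely filled ranges. ZIC1 ran from 17.7 to 503 CPM in the ZIC1-positive cells of ss11 (median 97.3) and from 10.9 to 420 CPM in those of ss15 (median 227.5), and the next cell below the gate had 9.55 CPM at ss11 and 4.59 CPM at ss15. The highest SOX10 level in a ZIC1-positive cell was 1.85 CPM at ss11 and 0 CPM at ss15. SOX10-high cells began at 131.7 CPM at ss11 and 208.5 CPM at ss15, and 2 cells of each stage lay between 20 and 100 CPM, up to 44.4 CPM at ss11 and 83.2 CPM at ss15. One of these cells, at ss11, also had ZIC1 above 10 CPM. Only 2 SOX10-high cells at ss11 and 3 at ss15 had ZIC1 at 10 CPM or more. The GATA3 gate left out 63 cells of ss11 and 64 of ss15 with SOX10 at 100 CPM or more, against 69 and 46 kept. The gates left 67 cells of ss11 and 73 of ss15 with low GATA3 in neither class.

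**Figure D1:**
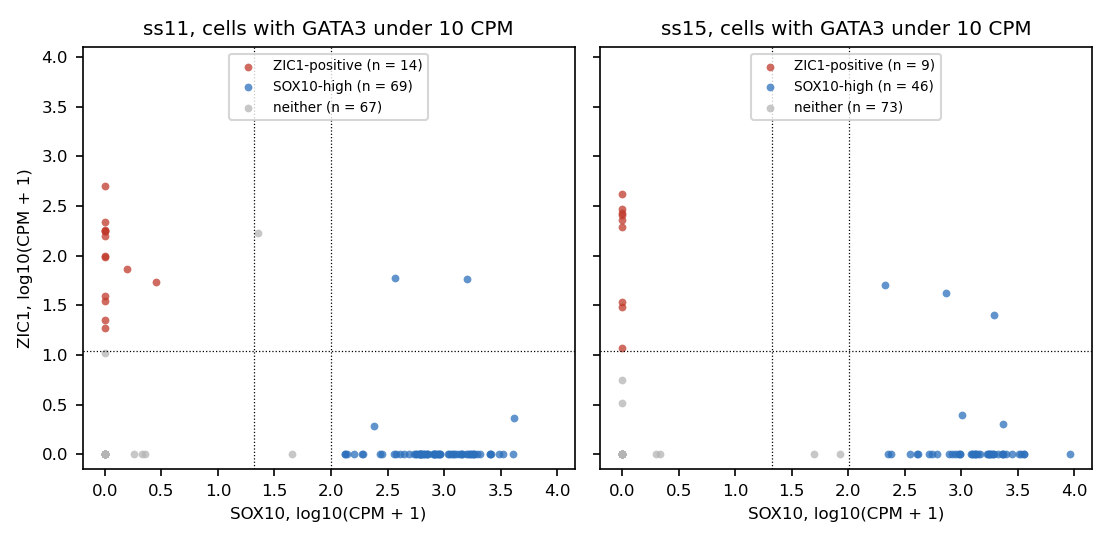
Each point is a kept cell with GATA3 under 10 CPM, at ss11 (left) and ss15 (right), placed by SOX10 (x axis) and ZIC1 (y axis), both as log10(CPM + 1); dotted lines mark the gates at 10 CPM of ZIC1 and at 20 and 100 CPM of SOX10. The 14 and 9 ZIC1-positive cells (red) stand along the left edge and the 69 and 46 SOX10-high cells (blue) along the bottom, with 2 and 3 blue cells above the ZIC1 line.

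The comparison had been set out as one of neural-like with crest cells, and the markers bore that out only in part. Of the neural markers listed for it, 6 had an identifier besides ZIC1. FABP7 at both stages and ZIC2 at ss11 were at least 2-fold higher in ZIC1-positive cells, CRYAB was lower at both stages, and LHX9, FEZF1 and DBX1 were too low to measure in either class (the measured range is given below). Over all cells, PAX7, ZEB2 and DRAXIN, listed as crest markers, had levels no lower in the ZIC1-positive class, 2-fold higher for PAX7 at ss15 and ZEB2 at ss11. The SOX10-high class in turn held cells with the otic gene SOHO-1, at 10 CPM or more in 17 of 69 cells at ss11 and 17 of 46 at ss15. The classes are therefore called by their gates. SOHO-1 and FOXD3, a crest gene, were found together in only 1 SOX10-high cell at ss11, with FOXD3 alone in 34 and SOHO-1 alone in 16; at ss15 both were found in 6, FOXD3 alone in 18 and SOHO-1 alone in 11.

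Markers of other ectoderm also occurred among the ZIC1-positive cells, mainly at ss11. SOHO-1 or LMX1A, listed as otic markers, reached 10 CPM in 7 of 14 ZIC1-positive cells and 30 of 69 SOX10-high cells at ss11, and in 1 of 9 ZIC1-positive cells and 22 of 46 SOX10-high cells at ss15. In the ZIC1-positive cells this was LMX1A alone, since SOHO-1 had no read there at either stage. LMX1A is also a gene of the dorsal midline of the neural tube. PAX7 was found in 6 of the 7 cells at ss11, and in 10 of all 14 ZIC1-positive cells. The cells with LMX1A are therefore not shown to be otic. DLX3, DLX6, CDH1 or EPCAM, markers of placodal and surface epithelium, reached 10 CPM in 10 of 14 ZIC1-positive and 40 of 69 SOX10-high cells at ss11, and in 2 of 9 ZIC1-positive and 21 of 46 SOX10-high cells at ss15. All 14 ZIC1-positive cells and 43 of 69 SOX10-high cells of ss11 carried at least 1 of these 6 genes. At ss15 it was 3 of 9 ZIC1-positive and 27 of 46 SOX10-high cells. Mesoderm markers (TWIST1, SIM1 or FLI1) were found in 0 of 14 ZIC1-positive cells, which allows a share of up to 21.4%, and 4 of 69 SOX10-high cells at ss11, and in 2 of 9 ZIC1-positive and 6 of 46 SOX10-high cells at ss15. Values without such cells are given below for some of the genes only, and the part of these cells in each difference was otherwise not tested.

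ZIC1-positive cells had more of the neural progenitor gene FABP7, of RGCC and of CD82 than SOX10-high cells at both stages, and less of the crest factors FOXD3, TFAP2B, SOX8 and RXRG, of the Wnt pathway genes LEF1, SFRP1 and DACT2 and of the collagen gene COL9A3. PAX7, ZEB2 and DRAXIN were found in both classes. At ss15 the epithelial genes CLDN1 and EPCAM and the receptor PLXNA4 were also lower in ZIC1-positive cells. The receptor EDNRB had no read in ZIC1-positive cells of either stage, but counted as measured at ss15 only. The level of a class is the sum of a gene's reads over the sum of all reads of its cells, in CPM. A gene counted as measured with a summed level of 20 CPM and 10 CPM or more in 20% of the cells in at least 1 class, and log2 folds are ZIC1-positive over SOX10-high after adding 1 CPM to both. Of 6938 genes measured at ss11, 848 (12.2%) were at least 2-fold higher and 898 (12.9%) at least 2-fold lower in ZIC1-positive cells. At ss15 these were 1093 (15.5%) and 1239 (17.6%) of 7038 genes. In the same direction at both stages were 468 genes (7.44% of the 6291 measured at both), 3.08% being higher and 4.36% lower. The higher ones were 34% of the higher calls of ss11 and 26.1% of those of ss15 among genes measured at both stages, and the lower ones 34.7% and 25.5% of the lower calls. A further 2.62% of the genes were 2-fold apart in opposite directions. Single cells weighed heavily on the small class, since 27.3% of the higher genes and 71.9% of the lower genes stayed 2-fold apart at both stages whichever cell was left out.

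Gene symbols were known for 332 of 24356 identifiers, and 75 of these genes were measured at ss11, 76 at ss15 and 54 at both. Of the 75, 19 (25.3%) were 2-fold higher and 20 (26.7%) lower, and of the 76, 11 (14.5%) were higher and 47 (61.8%) lower. Of the 54, 3 (5.56%) were higher at both stages and 17 (31.5%) lower, against 3.08% and 4.36% of all genes. The symbols come from the study's comparisons of otic with epibranchial cells and of Sox8-overexpressing cells with control ectoderm. They are therefore no even sample of the genes, and some were chosen by their response to a SOXE factor. The 3 higher genes were FABP7, RGCC and CD82. The 15 lower genes with the largest differences were SOHO-1, B3GAT1L, RXRG, DBNDD1, FOXD3, TFAP2B, LEF1, SOX8, COL9A3, RNF122, SFRP1, DACT2, CRYAB, SMPD3 and ADGRG1.

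**Figure D2:**
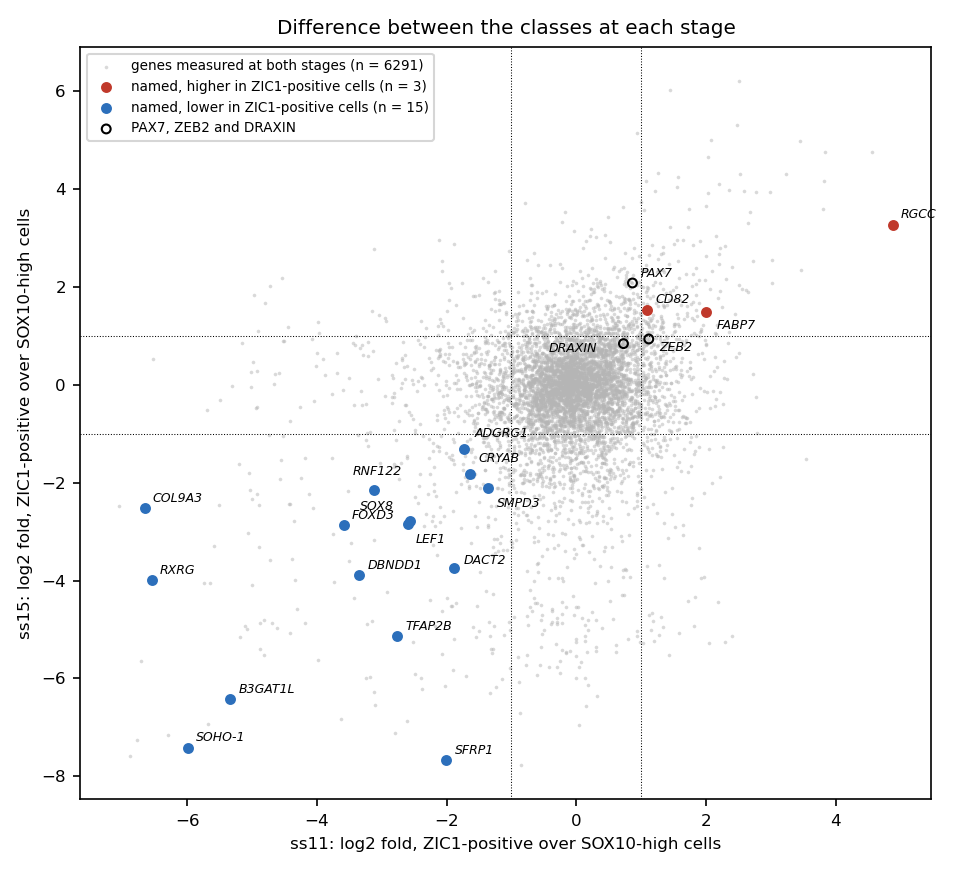
Each grey point is 1 of 6291 genes measured at both stages, placed by its log2 fold of ZIC1-positive over SOX10-high cells at ss11 (x axis) and ss15 (y axis), with dotted lines at 2-fold; folds of genes with no read in 1 class depend on the added 1 CPM. The 3 named higher genes (red) lie at the upper right, the 15 named lower genes (blue) at the lower left, and PAX7, ZEB2 and DRAXIN (open circles) between the centre and the upper right.

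PAX7, ZEB2 and DRAXIN were found in cells of both classes. Their levels were higher in ZIC1-positive cells by 2-fold or more only for PAX7 at ss15 and ZEB2 at ss11. PAX7 (ENSGALG00000043204), a paired box factor of the neural plate border and dorsal neural tube, stood at 199.9 (192.6 to 207.3) CPM in ZIC1-positive cells and 109.2 (106.8 to 111.7) CPM in SOX10-high cells at ss11 (log2 fold 0.87; in parentheses after each level is the exact Poisson 95% interval, for counting error only). At ss15 it stood at 299 (286.8 to 311) CPM in ZIC1-positive cells and 69.8 (67.3 to 72.3) CPM in SOX10-high cells (2.08). It was found at 10 CPM or more in 10 of 14 ZIC1-positive cells and 26 of 69 SOX10-high cells at ss11 and in 7 of 9 ZIC1-positive cells and 14 of 46 SOX10-high cells at ss15. The lowest, median and highest cell had 0, 177.4 and 761 CPM in ZIC1-positive cells and 0, 0 and 636 CPM in SOX10-high cells at ss11, so that the classes overlapped while their medians lay apart, and 0, 221.6 and 894 CPM in ZIC1-positive cells and 0, 0 and 852 CPM in SOX10-high cells at ss15.

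ZEB2 (ENSGALG00000040465), a zinc finger repressor of epithelial genes that acts in crest and neural development, reached 326 (317 to 336) CPM in ZIC1-positive cells and 149.9 (147.1 to 152.7) CPM in SOX10-high cells at ss11 (log2 fold 1.12). At ss15 it reached 302 (290.3 to 315) CPM in ZIC1-positive cells and 157.4 (153.7 to 161.2) CPM in SOX10-high cells (0.94), under 2-fold. Without 1 ZIC1-positive cell of the stage the fold of ZEB2 fell to 0.80 at ss11 and to 0.089 at ss15. Without the DLX3, DLX6, CDH1 or EPCAM cells it was 0.90 at ss11 and -0.45 at ss15. It was found in 10 of 14 ZIC1-positive cells and 37 of 69 SOX10-high cells at ss11 and in 6 of 9 ZIC1-positive cells and 23 of 46 SOX10-high cells at ss15. DRAXIN (ENSGALG00000004631), a secreted inhibitor of Wnt signalling and axon guidance cue of the dorsal neural tube, stood at 1083 (1066 to 1100.02) CPM in ZIC1-positive cells and 654 (648 to 659.8) CPM in SOX10-high cells at ss11 and at 139.4 (131.3 to 147.8) CPM in ZIC1-positive cells and 77.3 (74.7 to 80) CPM in SOX10-high cells at ss15, less than 2-fold apart at both (0.73 and 0.84 on the log2 scale). DRAXIN was found at 10 CPM or more in 11 of 14 ZIC1-positive cells and 46 of 69 SOX10-high cells at ss11. At ss15 it was found in 5 of 9 ZIC1-positive cells and 15 of 46 SOX10-high cells. With 1 cell left out its ss15 fold ranged from -0.015 to 1.41. Without the DLX3, DLX6, CDH1 or EPCAM cells the ss11 difference of DRAXIN turned. It was then at 367.9 CPM in 4 ZIC1-positive cells and 1025 CPM in 29 SOX10-high cells (log2 fold -1.48). The ss15 fold of DRAXIN was then 0.72. Both classes thus held cells with and without each of these 3 genes.

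FABP7 (ENSGALG00000038933), the brain fatty acid binding protein of neural progenitors and radial glia, was the most widely found of the 3 genes that were higher at both stages. It stood at 304 (295 to 313) CPM in ZIC1-positive cells and 75.1 (73.1 to 77.2) CPM in SOX10-high cells at ss11 (log2 fold 2.0) and at 168.7 (159.8 to 177.96) CPM in ZIC1-positive cells and 59.7 (57.4 to 62) CPM in SOX10-high cells at ss15 (1.48). Of the cells, 12 of 14 ZIC1-positive cells and 48 of 69 SOX10-high cells had FABP7 at ss11 and 8 of 9 ZIC1-positive cells and 28 of 46 SOX10-high cells at ss15. The lowest, median and highest cell had 0, 117.3 and 1864 CPM in ZIC1-positive cells and 0, 44 and 395 CPM in SOX10-high cells at ss11 and 0, 86.9 and 449.7 CPM in ZIC1-positive cells and 0, 36.2 and 283.7 CPM in SOX10-high cells at ss15. One ZIC1-positive cell gave 45.8% of the reads at ss11, and the fold ran from 1.23 to 2.13 with any one cell left out. Against the 2 SOX10-high cells of ss11 that had ZIC1 the fold was 0.11, under 2-fold. Cells with GATA3, the placodal cells that neither class took in, had 18.6 and 14 CPM at ss11 and ss15.

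RGCC (ENSGALG00000016954), a regulator of the cell cycle, was found in part of the ZIC1-positive cells and few others. Its level was 121.8 (116.1 to 127.6) CPM in ZIC1-positive cells and 3.17 (2.77 to 3.6) CPM in SOX10-high cells at ss11 (log2 fold 4.88) and 38.4 (34.2 to 42.9) CPM in ZIC1-positive cells and 3.08 (2.57 to 3.64) CPM in SOX10-high cells at ss15 (3.27). RGCC was found in 7 of 14 ZIC1-positive cells and 4 of 69 SOX10-high cells at ss11 and in 3 of 9 ZIC1-positive cells and 3 of 46 SOX10-high cells at ss15. At ss11, the 7 ZIC1-positive cells with RGCC all had FABP7 too, and 4 of them had PAX7. One cell held 53.8% of its ZIC1-positive reads at ss11 and one held 47.1% at ss15, and the folds with a cell left out stayed at 3.92 to 5.46 and 2.48 to 3.68.

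CD82 (ENSGALG00000038217), a membrane protein of the tetraspanin family, stood at 91.9 (87 to 97) CPM in ZIC1-positive cells and 42.8 (41.3 to 44.3) CPM in SOX10-high cells at ss11 (log2 fold 1.09) and at 93.2 (86.6 to 100.1) CPM in ZIC1-positive cells and 31.5 (29.8 to 33.2) CPM in SOX10-high cells at ss15 (1.54). It was found in 6 of 14 ZIC1-positive cells and 14 of 69 SOX10-high cells at ss11 and in 4 of 9 ZIC1-positive cells and 7 of 46 SOX10-high cells at ss15. Without 1 ZIC1-positive cell the ss11 fold was 0.61, under 2-fold. GATA3-positive cells had more CD82 than either class, at 174.002 CPM at ss11 and 102.3 CPM at ss15.

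The neural plate and tube factors could be followed by few genes, since 10 of the 36 listed besides ZIC1 had an identifier and most of those were near 0. ZIC2 (ENSGALG00000041083), a paralog of ZIC1 that was not used by the gates, stood at 29 (26.3 to 31.9) CPM in ZIC1-positive cells and 2.19 (1.86 to 2.56) CPM in SOX10-high cells at ss11 (log2 fold 3.23), with 6 of 14 ZIC1-positive cells and 2 of 69 SOX10-high cells expressing it. At ss15 it was below the measured range in both classes, at 5.9 (4.33 to 7.84) CPM in 1 of 9 ZIC1-positive cells and 2.47 (2.03 to 2.99) CPM in SOX10-high cells. IRX1 (ENSGALG00000030991), an Iroquois homeobox gene of the neural plate and placodal ectoderm, was measured at ss15 only, at 31.4 (27.6 to 35.5) CPM in ZIC1-positive cells and 1.02 (0.739 to 1.37) CPM in SOX10-high cells (log2 fold 4.0). It was found in 5 of 9 ZIC1-positive cells and 1 of 46 SOX10-high cells at ss15, and in 3 of 14 ZIC1-positive cells and 8 of 69 SOX10-high cells at ss11. NPAS3, a neural basic helix-loop-helix gene, was 2-fold higher at ss15 (20.8 CPM in ZIC1-positive cells and 8.95 CPM in SOX10-high cells) through 1 cell with 80.1% of the reads, and its fold was -0.8 without that cell.

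Among the identifiers without a symbol, the pair with the largest differences at both stages is also given. ENSGALG00000012647 was found in 8 of 14 ZIC1-positive cells and 2 of 69 SOX10-high cells at ss11 and in 8 of 9 ZIC1-positive cells and 3 of 46 SOX10-high cells at ss15, at 89.9 (85 to 95) CPM in ZIC1-positive cells and 2.83 (2.46 to 3.25) CPM in SOX10-high cells at ss11 (log2 fold 4.57) and 103.5 (96.5 to 110.8) CPM in ZIC1-positive cells and 2.87 (2.38 to 3.42) CPM in SOX10-high cells at ss15 (4.76). It marked more of the ZIC1-positive cells of ss15 than RGCC did, and GATA3-positive cells had 1.31 and 2.21 CPM of it at the 2 stages. ENSGALG00000008918 followed with log2 folds of 3.84 and 4.76, found in 4 of 14 ZIC1-positive cells and 2 of 69 SOX10-high cells at ss11 and 3 of 9 ZIC1-positive cells and 2 of 46 SOX10-high cells at ss15.

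Of 9 listed crest transcription factors with an identifier besides SOX10, 6 were measured at ss11, of which ZEB2 was 2-fold higher and 4 (FOXD3, TFAP2B, SOX8 and RXRG) 2-fold lower in ZIC1-positive cells. At ss15, 7 were measured, with PAX7 higher and FOXD3, TFAP2B, SOX8, RXRG and LMO4 lower. Of all genes with a symbol, 26.7% were 2-fold lower at ss11 and 61.8% at ss15. Of all genes measured, 12.9% and 17.6% were. The median log2 fold of the measured members was -2.67 at ss11 and -2.78 at ss15, where that of all measured genes was -0.0084 and -0.0073. The list holds known crest markers and was drawn up with results of these data in view, so that its direction is no independent evidence.

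FOXD3 (ENSGALG00000042686), a forkhead factor of the premigratory crest, stood at 2.6 (1.83 to 3.59) CPM in ZIC1-positive cells and 42.4 (40.9 to 43.9) CPM in SOX10-high cells at ss11 (log2 fold -3.59) and at 3.39 (2.23 to 4.93) CPM in ZIC1-positive cells and 30.8 (29.2 to 32.5) CPM in SOX10-high cells at ss15 (-2.86). It reached 10 CPM in 2 of 14 ZIC1-positive cells and 35 of 69 SOX10-high cells at ss11 and in 1 of 9 ZIC1-positive cells and 24 of 46 SOX10-high cells at ss15. The median ZIC1-positive cell had none at either stage, against 12.8 and 15.7 CPM in the median SOX10-high cell. TFAP2B (ENSGALG00000016680), an AP-2 factor of the crest, was at 49.7 (46.1 to 53.5) CPM in ZIC1-positive cells and 344 (339 to 348) CPM in SOX10-high cells at ss11 (log2 fold -2.77) and at 9.03 (7.07 to 11.4) CPM in ZIC1-positive cells and 350.4 (345 to 356) CPM in SOX10-high cells at ss15 (-5.13). TFAP2B was found in 4 of 14 ZIC1-positive cells and 45 of 69 SOX10-high cells at ss11 and in 2 of 9 ZIC1-positive cells and 33 of 46 SOX10-high cells at ss15. The few ZIC1-positive cells with FOXD3, 2 at ss11 and 1 at ss15, all had TFAP2B and PAX7 as well.

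SOX8 (ENSGALG00000005263), a SOXE factor like SOX10 that acts in crest and in the otic placode, stood at 29.3 (26.5 to 32.2) CPM in ZIC1-positive cells and 178.3 (175.2 to 181.4) CPM in SOX10-high cells at ss11 (log2 fold -2.57) and at 24.7 (21.4 to 28.4) CPM in ZIC1-positive cells and 175.5 (171.6 to 179.5) CPM in SOX10-high cells at ss15 (-2.78). At 10 CPM or more it was found in 4 of 14 ZIC1-positive cells and 55 of 69 SOX10-high cells at ss11 and in 2 of 9 ZIC1-positive cells and 39 of 46 SOX10-high cells at ss15, and the highest ZIC1-positive cell, at 239.7 CPM at ss11, lay within the SOX10-high range. In the SOX10-high class SOX8 occurred with SOHO-1 in 16 cells and without it in 39 at ss11, so that both otic and other SOX10-high cells carried it. LMO4 (ENSGALG00000006252), a LIM-only cofactor, was measured at ss15 at 6.9 (5.2 to 8.98) CPM in ZIC1-positive cells and 28.6 (27 to 30.2) CPM in SOX10-high cells (-1.9), in 1 of 9 ZIC1-positive cells and 23 of 46 SOX10-high cells.

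RXRG (ENSGALG00000040730), the retinoid X receptor gamma of crest and its glial derivatives, had no read in the 14 ZIC1-positive cells of ss11 and 92.7 (90.5 to 95) CPM in SOX10-high cells, where 37 of 69 had it. Set against 3 reads over the class, the most that a count of 0 allows, it was at least 439-fold lower. Bounds of this kind, here and below, cover the counting of reads only and not the sampling of 14 or 9 cells. At ss15 it stood at 15.3 (12.7 to 18.3) CPM in ZIC1-positive cells and 257.6 (252.8 to 262.4) CPM in SOX10-high cells (log2 fold -3.99), in 2 of 9 ZIC1-positive cells and 33 of 46 SOX10-high cells. Its lowest, median and highest SOX10-high cells had 0, 54.7 and 619 CPM at ss11 and 0, 205.8 and 1183 CPM at ss15. RLBP1, a retinaldehyde binding protein, had no read in any ZIC1-positive cell of either stage, and was at 19.3 (18.3 to 20.3) and 23.9 (22.5 to 25.4) CPM in SOX10-high cells of ss11 and ss15, at least 91.4-fold and 63.6-fold apart.

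**Figure D3:**
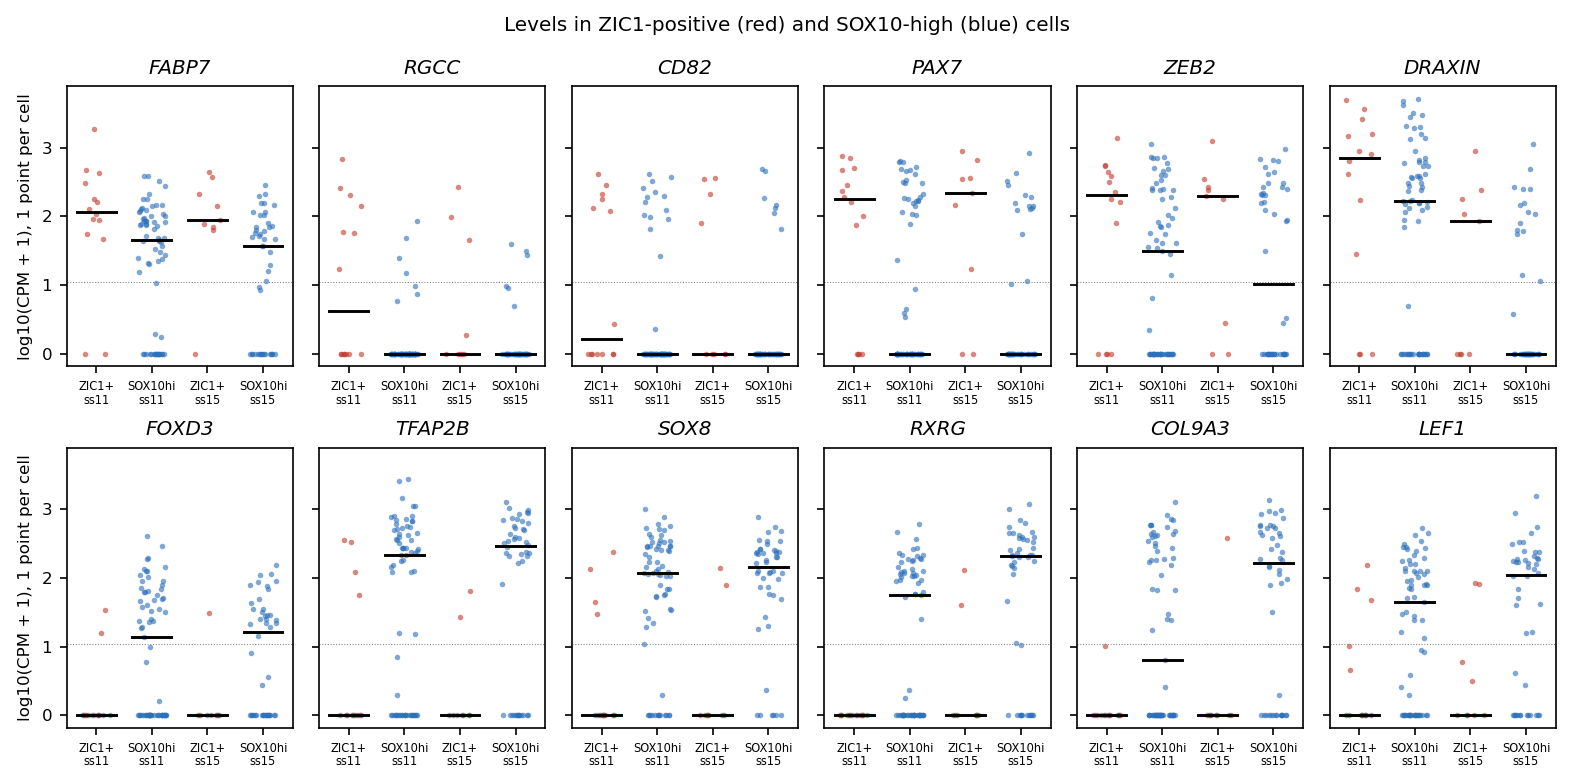
Level of 12 genes in every cell, as log10(CPM + 1) on the y axis, with ZIC1-positive (red) and SOX10-high cells (blue) of ss11 and ss15 along the x axis; black bars are medians over 14, 69, 9 and 46 cells and the dotted line is 10 CPM. PAX7, ZEB2 and DRAXIN are found in cells of both classes, with a PAX7 median of 0 in SOX10-high cells at both stages. FOXD3, TFAP2B, SOX8, RXRG, COL9A3 and LEF1 have a median of 0 in ZIC1-positive cells at both stages.

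Among the receptors, ligands and guidance genes of the crest, 11 of 22 had an identifier. The measured ones, not all the same genes at both stages, stood on different sides at the 2 stages, a difference that was not tested. Of 5 measured at ss11, KITLG and UNC5B were 2-fold higher and none 2-fold lower. Of 6 measured at ss15, 5 were 2-fold lower (EDNRB, CXCL12, PLXNA4, UNC5B and RTN4R) and none higher, with DRAXIN within 2-fold. Of all genes with a symbol, 61.8% were lower at ss15. The list medians were 0.98 and -3.18, the second being -3.29 with genes without ZIC1-positive reads set at their bound. They rest partly on different genes. EDNRB and CXCL12 were not measured at ss11 by the filter, but were lower in ZIC1-positive cells there too.

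EDNRB (ENSGALG00000016912), the endothelin receptor B of migrating crest, had no read in the 14 ZIC1-positive cells of ss11 or the 9 of ss15. It stood at 19.3 (18.3 to 20.3) CPM in SOX10-high cells at ss11, in 19 of 69 cells, and at 20.1 (18.8 to 21.5) CPM at ss15, in 19 of 46. By read counts ZIC1-positive cells were thus at least 91.4-fold and 53.3-fold lower. Counted by cells, 0 of 14 allows a share of up to 21.4% and 0 of 9 one of up to 33.3%, which these bounds leave out. PLXNA4 (ENSGALG00000006473), a plexin receptor for semaphorins, was at 52.6 (48.9 to 56.5) CPM in ZIC1-positive cells and 84.8 (82.7 to 86.9) CPM in SOX10-high cells at ss11, within 2-fold (-0.68), and at 3.26 (2.13 to 4.78) CPM in ZIC1-positive cells and 103.9 (100.8 to 106.9) CPM in SOX10-high cells at ss15 (-4.62). UNC5B, a netrin receptor, was 2-fold apart in opposite directions at the 2 stages, at 171.4 CPM in ZIC1-positive cells and 60 CPM in SOX10-high cells at ss11 (1.5) and at 35.4 CPM in ZIC1-positive cells and 96.9 CPM in SOX10-high cells at ss15 (-1.43). KITLG (ENSGALG00000011206), the ligand of the receptor KIT, was found at ss11 in 3 of 14 ZIC1-positive cells and 3 of 69 SOX10-high cells, at 27.8 (25.1 to 30.7) CPM in ZIC1-positive cells and 1.83 (1.53 to 2.17) CPM in SOX10-high cells (3.35), and in 0 of 9 ZIC1-positive cells at ss15. CXCL12, a chemokine that guides migrating cells, had no read in ZIC1-positive cells at ss15 and 25.2 (23.8 to 26.8) CPM in SOX10-high cells, at least 67-fold apart. At ss11 the ratio of CXCL12 rested on 3 reads in ZIC1-positive cells and was 0.0088 (95% counting interval 0.00181 to 0.0258).

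Wnt signalling genes were represented by 11 identifiers of 24 genes, and 5 were measured at each stage. LEF1, SFRP1 and DACT2 were 2-fold lower in ZIC1-positive cells at both stages and TCF7L1 at ss15 only. DRAXIN was within 2-fold at both stages, with log2 folds of 0.73 and 0.84, and none was 2-fold higher. The lower genes were 3 of 5 at ss11 and 4 of 5 at ss15. The shares lower among all genes with a symbol were 26.7% and 61.8%. The list medians were -1.89 at ss11 and -2.85 at ss15. Summed over the list, the median ZIC1-positive cell had 1008 CPM and the median SOX10-high cell 791 CPM at ss11. At ss15 these were 108.8 and 700.6 CPM. LEF1 (ENSGALG00000031960), a nuclear partner of beta-catenin, stood at 14.8 (12.8 to 16.9) CPM in ZIC1-positive cells and 94.6 (92.4 to 96.9) CPM in SOX10-high cells at ss11 (log2 fold -2.6) and at 21.7 (18.6 to 25.2) CPM in ZIC1-positive cells and 162.2 (158.4 to 166.1) CPM in SOX10-high cells at ss15 (-2.85), in 3 of 14 ZIC1-positive cells and 42 of 69 SOX10-high cells at ss11 and in 2 of 9 ZIC1-positive cells and 31 of 46 SOX10-high cells at ss15. TCF7L1, which represses Wnt targets in the absence of the signal, stood at 14.8 CPM in ZIC1-positive cells and 22.4 CPM in SOX10-high cells at ss11 (-0.56) and at 17.8 CPM in ZIC1-positive cells and 45.4 CPM in SOX10-high cells at ss15 (-1.3).

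SFRP1 (ENSGALG00000003473), a secreted antagonist of Wnt ligands, was at 16.7 (14.7 to 19) CPM in ZIC1-positive cells and 70.3 (68.4 to 72.3) CPM in SOX10-high cells at ss11 (log2 fold -2.01). It had no read in ZIC1-positive cells at ss15, where 35 of 46 SOX10-high cells had it at a summed 201.4 (197.2 to 205.7) CPM, at least 535-fold more. Among cells with PAX7 the ss11 difference turned, with 26.1 CPM in ZIC1-positive and 19.9 CPM in SOX10-high cells, and the list median then lay at 0.26. Without the DLX3, DLX6, CDH1 or EPCAM cells SFRP1 was within 2-fold at ss11 (-0.30), at 38.2 CPM in ZIC1-positive and 47.3 CPM in SOX10-high cells. DACT2 (ENSGALG00000011288), a Dishevelled-binding regulator of Wnt signalling that is also listed as an otic marker, stood at 120.2 (114.6 to 126.1) CPM in ZIC1-positive cells and 449 (444 to 454) CPM in SOX10-high cells at ss11 (-1.89) and at 20.8 (17.8 to 24.2) CPM in ZIC1-positive cells and 289.99 (284.9 to 295) CPM in SOX10-high cells at ss15 (-3.74). One ZIC1-positive cell held 60.6% of its reads at ss11 and all of them at ss15.

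COL9A3 (ENSGALG00000005628), a chain of type IX collagen, stood at 0.703 (0.337 to 1.29) CPM in ZIC1-positive cells and 171.1 (168.1 to 174.2) CPM in SOX10-high cells at ss11, where no ZIC1-positive cell reached 10 CPM (log2 fold -6.66). At ss15 it was at 49.9 (45.1 to 55.1) CPM in ZIC1-positive cells and 290.3 (285.3 to 295) CPM in SOX10-high cells (-2.52), but all ZIC1-positive reads came from 1 cell of 9, at 388 CPM. SOX10-high cells had COL9A3 in 34 of 69 cells at ss11 and 31 of 46 at ss15. Of the 11 matrix genes with an identifier, 4 were measured at ss11 (NELL1 higher, COL9A3 lower) and 3 at ss15 (COL9A3, TIMP2 and SDC3, all lower, beside 61.8% of all genes with a symbol). SDC3, a heparan sulfate proteoglycan of the cell surface, was within 2-fold at ss11, at 48.3 CPM in ZIC1-positive cells and 37.1 CPM in SOX10-high cells, and -3.71 on the log2 scale at ss15, at 4.39 CPM in ZIC1-positive cells and 69.5 CPM in SOX10-high cells. TIMP2, an inhibitor of matrix metalloproteases, was likewise within 2-fold at ss11 (0.35) and lower at ss15 (-1.89).

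B3GAT1L (ENSGALG00000015075), named as like the glucuronyltransferase that builds the HNK-1 epitope of migrating crest, had no read in any ZIC1-positive cell. It was found in 19 of 69 SOX10-high cells at 39.5 (38.1 to 41) CPM at ss11 and in 16 of 46 at 85.1 (82.4 to 87.9) CPM at ss15, at least 187.3-fold and 226.1-fold more. SMPD3 (ENSGALG00000034950), a neutral sphingomyelinase, stood at 30.1 (27.3 to 33.1) CPM in ZIC1-positive cells and 78.6 (76.6 to 80.7) CPM in SOX10-high cells at ss11 (-1.36) and at 26.6 (23.1 to 30.4) CPM in ZIC1-positive cells and 117.8 (114.5 to 121.04) CPM in SOX10-high cells at ss15 (-2.11). SMPD3 reached 10 CPM in 5 of 14 ZIC1-positive cells at ss11 and 4 of 9 at ss15. DBNDD1, a dysbindin domain gene, was found in 1 ZIC1-positive cell of each stage against 38 of 69 SOX10-high cells at ss11 and 26 of 46 at ss15, with log2 folds of -3.35 and -3.89. RNF122, a RING finger gene, had log2 folds of -3.13 and -2.14, and was found in 2 of 14 ZIC1-positive cells and 31 of 69 SOX10-high cells at ss11 and in 2 of 9 ZIC1-positive cells and 21 of 46 SOX10-high cells at ss15.

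Several further genes were measured only at ss15 and had no read in its 9 ZIC1-positive cells. MEF2C, a MADS box factor of crest and mesoderm, stood at 36.1 (34.3 to 38) CPM over the SOX10-high cells, 21 of 46 of which had it, at least 96-fold more. EBF2, a helix-loop-helix factor of neuronal differentiation, was at 31.4 (29.8 to 33.1) CPM over the SOX10-high cells, in 10 of 46, at least 83.4-fold more. GNG4, a G protein gamma subunit, was at 21.8 (20.4 to 23.2) CPM over the SOX10-high cells, in 22 of 46, at least 57.9-fold more. At ss11 the same 3 genes had levels of 0.0703, 0 and 1.41 CPM in ZIC1-positive cells and 12.8, 7.65 and 12.2 CPM in SOX10-high cells, for MEF2C, EBF2 and GNG4 in order. These levels were under the measured range but higher in SOX10-high cells for each of the 3. The lowest identifier without a symbol, ENSGALG00000015970, had no ZIC1-positive read at either stage and was found in 40 of 69 SOX10-high cells at ss11 and 32 of 46 at ss15, at least 555-fold and 510.4-fold more. ENSGALG00000003895 came next, at least 513-fold and 404-fold. Few SOX10-high cells had it once the SOHO-1 or LMX1A cells were left out, 3 of 39 at ss11 and 1 of 24 at ss15. Among SOX10-high cells with PAX7 it was found in 1 of 26 and 0 of 14.

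PAX7 was used by no gate and was found in both classes, so that the classes could also be set side by side within PAX7-expressing cells, a choice made after the values were seen. This left 10 ZIC1-positive and 26 SOX10-high cells at ss11, and 7 ZIC1-positive and 14 SOX10-high cells at ss15, and SOHO-1 was found in 0 ZIC1-positive and 2 SOX10-high cells at ss11 and in 0 and 3 at ss15. ZEB2 had log2 folds of 0.32 at ss11 and 0.45 at ss15, and DRAXIN of 0.35 and -0.21. FABP7 was at 233.9 CPM in ZIC1-positive cells and 101.9 CPM in SOX10-high cells at ss11 (log2 fold 1.19), and was within 2-fold at ss15 (0.61).

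The crest genes remained apart in these PAX7 cells. FOXD3 was found in 2 of 10 ZIC1-positive and 22 of 26 SOX10-high cells at ss11, and in 1 of 7 and 12 of 14 at ss15. TFAP2B was found in 4 of 10 ZIC1-positive and 24 of 26 SOX10-high cells at ss11, and in 2 of 7 and 14 of 14 at ss15. COL9A3 reached 10 CPM in none of the ZIC1-positive cells with PAX7 at either stage, against 15 of 26 SOX10-high cells at ss11 and 12 of 14 at ss15. SOX8 was the nearest to the 2-fold line, with log2 folds of -1.07 and -2.03. LEF1 stood at -2.72 and -6.93, and RXRG had no read in the 10 ZIC1-positive cells of ss11 and a log2 fold of -3.68 at ss15. CD82 was at 0.98 and 2.64, under 2-fold at ss11. RGCC stayed higher, at 54 CPM in ZIC1-positive and 7.6 CPM in SOX10-high cells at ss11, and at 51.7 and 0.776 CPM at ss15.

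**Figure D4:**
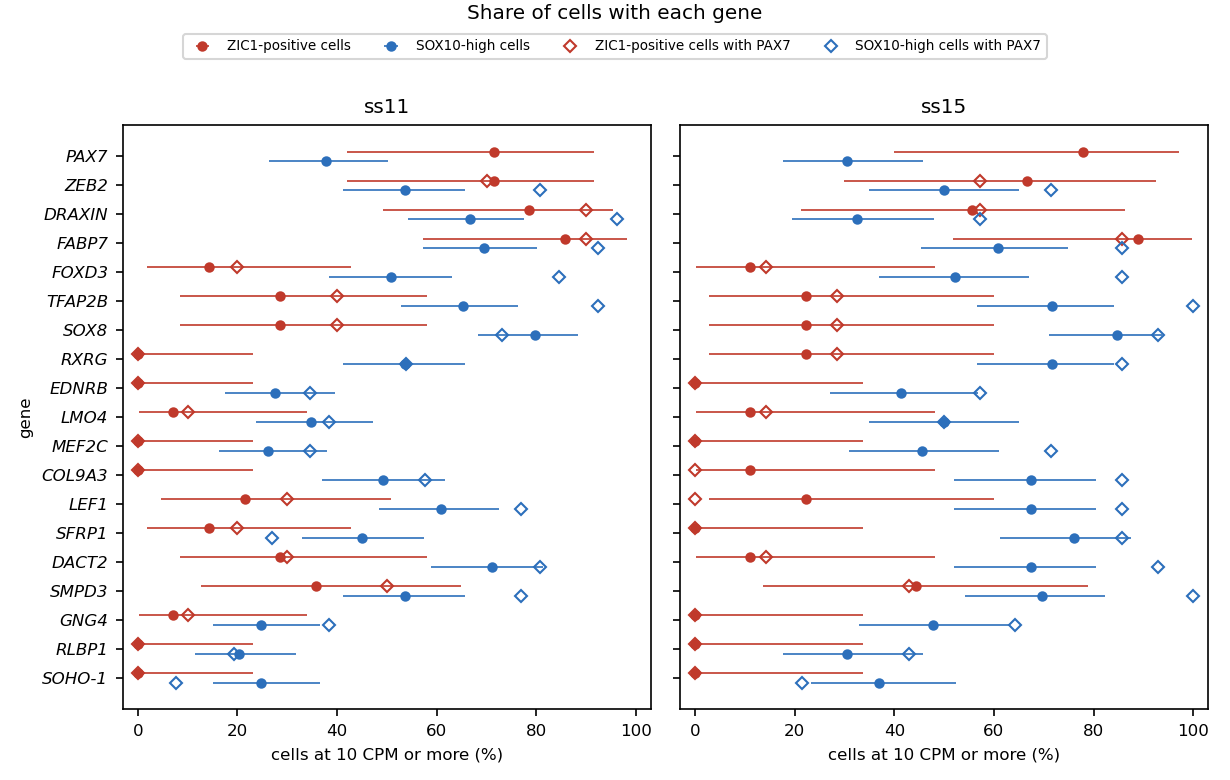
Share of cells with each of 19 genes at 10 CPM or more (x axis, percent) at ss11 and ss15, in ZIC1-positive (red) and SOX10-high cells (blue), filled points with exact binomial 95% intervals over 14, 69, 9 and 46 cells and open diamonds for only those cells that had PAX7 (10, 26, 7 and 14). ZEB2, DRAXIN and FABP7 lie at like shares in both classes among PAX7 cells, and FOXD3 and TFAP2B stay at or below 40% in the red diamonds and at or above 84.6% in the blue ones.

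Some otic and epithelial genes also differed. SOHO-1 (ENSGALG00000015599), a homeobox gene of the otic placode, had no read in ZIC1-positive cells and 62.6 (60.8 to 64.5) CPM in SOX10-high cells at ss11 and 169.4 (165.5 to 173.3) CPM at ss15, at least 297-fold and 450.1-fold apart. The same gene stood at 116.4 and 254.97 CPM in GATA3-positive cells. LMX1A, a LIM homeobox gene of the otic placode and of the dorsal midline of the neural tube, was within 2-fold at ss11 (61.1 CPM in ZIC1-positive cells and 54.3 CPM in SOX10-high cells), and at ss15 it was found in 1 of 9 ZIC1-positive cells and 12 of 46 SOX10-high cells (-1.45). Without the DLX3, DLX6, CDH1 or EPCAM cells LMX1A was at 154.1 CPM in ZIC1-positive and 2.03 CPM in SOX10-high cells at ss11 (5.68). It was then found in 4 of 4 ZIC1-positive and 1 of 29 SOX10-high cells. Every ZIC1-positive cell of ss11 had LMX1A or a gene used to leave cells out, so that the 4 of 4 was fixed by the choice of cells. Of the 10 epithelial genes with an identifier, 6 were measured at ss11, with KRT7 2-fold lower and 5 within 2-fold. At ss15 4 were measured, with EPCAM, KRT18 and ESRP2 lower and KRT19 within 2-fold. The shares 2-fold lower among all genes with a symbol were 26.7% at ss11 and 61.8% at ss15.

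CLDN1 (ENSGALG00000026862), a tight junction protein, was within 2-fold at ss11 and lower at ss15, and this difference between the stages was not tested. It was found in 11 of 14 ZIC1-positive cells and 47 of 69 SOX10-high cells at ss11, at 839 (824 to 854) CPM in ZIC1-positive cells and 1382 (1374 to 1391) CPM in SOX10-high cells (-0.72). At ss15 it was found in 1 of 9 ZIC1-positive cells and 35 of 46 SOX10-high cells, at 62.7 (57.3 to 68.5) CPM in ZIC1-positive cells and 1483 (1472 to 1495) CPM in SOX10-high cells (-4.54). EPCAM, an epithelial adhesion protein, was found in 7 of 14 ZIC1-positive cells and 37 of 69 SOX10-high cells at ss11 (log2 fold -0.66). At ss15 it was found in 1 of 9 ZIC1-positive cells and 21 of 46 SOX10-high cells (-4.0). Among cells with PAX7, EPCAM was at 23.9 CPM in ZIC1-positive and 98.3 CPM in SOX10-high cells at ss11. The levels in the same order at ss15 were 21.1 and 21.8 CPM. All ZIC1-positive reads of KRT18, a keratin, and of ESRP2, an epithelial splicing regulator, came from 1 cell of 14 at ss11. The summed level of the epithelial list ran from 0 to 5109.6 CPM over ZIC1-positive cells (median 76.5) and from 0 to 5377 CPM over SOX10-high cells (median 217.1) at ss11, and the medians were 205.2 and 138.9 CPM at ss15. The list had 2 and 3 of its 10 genes at 0 reads in ZIC1-positive cells and none in SOX10-high cells at the 2 stages.

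With the SOHO-1 or LMX1A cells left out, 7 ZIC1-positive and 39 SOX10-high cells remained at ss11, and 8 ZIC1-positive and 24 SOX10-high cells at ss15. The crest factors kept their direction. FOXD3 was found in 1 of 7 ZIC1-positive and 28 of 39 SOX10-high cells at ss11 and in 0 of 8 and 16 of 24 at ss15. The log2 folds of TFAP2B were -2.14 and -7.29, and those of SOX8 -4.81 and -2.54. RGCC, FABP7 and CD82 also stayed 2-fold higher at both stages. EPCAM did not keep its direction, with log2 folds of 1.9 at ss11 and 0.78 at ss15. CLDN1 was at 0.283 CPM in ZIC1-positive cells and 492 CPM in SOX10-high cells at ss15. In the same order KRT18 was at 0.142 and 14 CPM and ESRP2 at 0 and 17.8 CPM. These 3 stayed lower at that stage. ADGRG1, an adhesion receptor coupled to G proteins, was lower in all cells (-1.73 and -1.31) but at 2.13 at ss15 in this subset, and all its ZIC1-positive reads came from 1 cell at each stage. With the DLX3, DLX6, CDH1 or EPCAM cells left out, 4 ZIC1-positive and 29 SOX10-high cells remained at ss11 and 7 ZIC1-positive and 25 SOX10-high cells at ss15. TFAP2B (-4.36 and -5.24), FOXD3 (-4.42 and -2.35), RGCC (3.65 and 3.71) and FABP7 (1.52 and 1.53) stayed 2-fold apart, while SOX8 (-0.84), SFRP1 (-0.30) and CD82 (0.38) were within 2-fold at ss11.

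CRYAB (ENSGALG00000007945), a small heat shock protein and lens crystallin, had been given as a marker of the ZIC1-positive class and was lower in it. It stood at 5.84 (4.65 to 7.24) CPM in ZIC1-positive cells and 20.3 (19.3 to 21.4) CPM in SOX10-high cells at ss11 (log2 fold -1.64) and at 26.5 (23 to 30.3) CPM in ZIC1-positive cells and 96.4 (93.5 to 99.4) CPM in SOX10-high cells at ss15 (-1.83). It was found in 1 of 14 ZIC1-positive cells and 14 of 69 SOX10-high cells at ss11 and in 2 of 9 ZIC1-positive cells and 16 of 46 SOX10-high cells at ss15. One SOX10-high cell held 59.8% of the SOX10-high reads at ss11, and without it the fold was -0.44, under 2-fold. HSPA2, a heat shock protein of the HSP70 family, was lower at both stages too (-1.42 and -1.17), with 164.9 CPM in ZIC1-positive cells and 444 CPM in SOX10-high cells at ss11, and MPZL3, a membrane protein related to myelin protein zero, at -1.28 and -4.28; the 2 complete the 17 lower genes. Without the SOHO-1 or LMX1A cells the ss11 difference of MPZL3 turned, with 118.03 CPM in ZIC1-positive and 71.2 CPM in SOX10-high cells (log2 fold 0.72). Of the immediate early genes, FOS was within 2-fold at both stages (0.97 and -0.39), and JUN was measured at ss11 at 10.7 CPM in ZIC1-positive cells and 28.4 CPM in SOX10-high cells (-1.33).

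Other lists gave little. None of the 5 FGF and BMP genes with an identifier was measured at either stage. Of the mesoderm markers only MEF2C was measured, and the median ZIC1-positive cell had a summed level of 0 CPM over the 12 at both stages, against 0.922 and 12.8 CPM in the median SOX10-high cell. Among Notch and progenitor genes, HEYL, a Notch target, was at 0.011 at ss11 and -1.43 at ss15, with all ZIC1-positive reads of ss15 in 1 cell. Of 7 epibranchial genes, 3 were measured at ss11, with NELL1 2-fold higher (69.2 CPM in ZIC1-positive cells and 26.4 CPM in SOX10-high cells) and PDLIM1 and PRDM1 within 2-fold, and PDLIM1 alone at ss15, within 2-fold.

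With each cell left out in turn, RGCC and FABP7 stayed at least 2-fold higher and 14 of the 15 named lower genes at least 2-fold lower at both stages. CD82 and CRYAB each lost the 2-fold difference at ss11 without 1 cell. Of the other listed genes, NELL1 at ss11 (to 0.76), KRT7 at ss11 (to -0.95), HSPA2 at ss15 (to -0.98), LMX1A at ss15 (to -0.93) and EBF3 at ss15 (to -0.79) did too, besides ZEB2, UNC5B and NPAS3. Low ends of the ranges were widest where 1 ZIC1-positive cell held all reads, as for COL9A3, DACT2 and ADGRG1 at ss15.

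**Figure D5:**
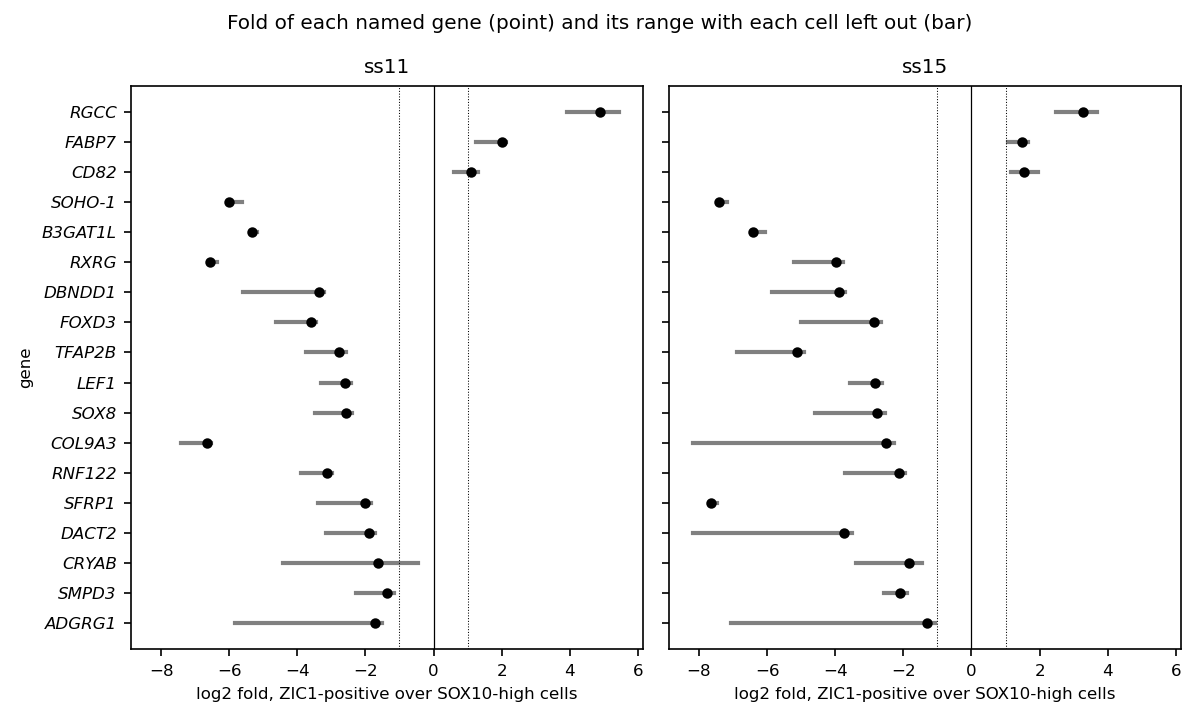
Log2 fold of ZIC1-positive over SOX10-high cells (x axis) for the 3 named higher and 15 named lower genes (y axis) at ss11 and ss15, as a point for all cells and a bar from the lowest to the highest value with each cell left out; dotted lines are 2-fold. Bars cross the 2-fold line only for CD82 and CRYAB at ss11, and the bars of genes with no ZIC1-positive read are short because they rest on the added 1 CPM.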

How the data were processed

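The deposited table holds read counts per gene for 858 single cells of chick embryos, 284 of them from ss11 and 286 from ss15. The authors trimmed reads with cutadapt 2.10, aligned them to galGal6 with the EGFP sequence added using HISAT2 2.2.1, handled alignments with SAMtools 1.10 and counted reads per gene with HTSeq 0.12.4, as the submitters' processing notes and the study's methods state. The libraries of these 2 stages were read in pairs of 75 bases. The counts are raw. SmartSeq2 has no molecular identifiers and does not mark strand, so that PCR copies are counted, intervals cover counting error only and antisense partners cannot be told apart. Each well took 1 sorted live cell and no doublet caller was run. The study's limit on mitochondrial reads was not applied, since no mitochondrial identifier was named.

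Here, cells with at least 500000 reads and 1000 genes were kept, and the classes were set by ZIC1, SOX10 and GATA3 in CPM, which were then left out of all results. This left 138 cells of the 262 kept at ss11 and the 246 kept at ss15. Reads were summed per class and stage. Each level has an exact Poisson 95% interval and each share of cells an exact binomial (Clopper-Pearson) one. With 1 sorted sample per stage there was no replicate, and no test was made. A gene with no read in a class was set to 3 reads for a bound, and a share of 0 is given with the limit of 3 cells of the total. The bound of a fold covers the counting of reads and not the sampling of cells. Each stage gave a log2 fold after adding 1 CPM for genes of at least 20 CPM with 20% of the cells at 10 CPM or more in 1 class, and 2-fold was the limit of a call. Genes were named where they passed it in the same direction at both stages, ranked by the smaller fold, up to 15 with a symbol on each side and 2 identifiers without one. Members of the gene lists were given besides. Symbols came from the 332 identifiers that the study's own tables pair with one. The cell classes and gene lists were chosen with earlier results of these data known. The procedure was tested on simulated data. Alternatives covered the gates, cells with markers of other tissues, depth, normalization (TMM of edgeR 4.0.16), the added CPM and the filter. Leaving out each cell and taking only PAX7 cells were chosen after seeing the data. Python 3.11.15, pandas 2.3.3, numpy 2.4.6, SciPy 1.17.1 and R 4.3.3 were used.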

Additional observations from a re-analysis of the deposited data

Results flagged for a closer look

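UNC5B, a netrin receptor, was at least 2-fold higher in ZIC1-positive cells at ss11 (log2 fold 1.5) and at least 2-fold lower at ss15 (log2 fold -1.43), so that its difference had opposite directions at the 2 stages. It was singled out for that, and the difference between the stages was not tested. Without 1 ZIC1-positive cell the ss11 log2 fold was 0.8.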

How the results depend on the processing

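At least 2-fold apart were 1746 genes at ss11, 2332 at ss15 and 468 at both stages. With each cell left out in turn the counts ranged from 1729 to 1848, from 2276 to 2621 and from 452 to 497. With a minimum of 50 CPM they were 891 at ss11, 1260 at ss15 and, rounded, 2.2e+02 at both stages, and with no filter beyond 1 read 5828, 6715 and 1962. With the 2 and 3 SOX10-high cells that had ZIC1 they were 3890 at ss11 and 811 at both stages, and without the DLX3, DLX6, CDH1 or EPCAM cells 3737 and 783, each on fewer cells. No other alternative moved a count by more than 1.5 times. Of the genes apart, 48.6% were higher at ss11, 46.9% at ss15 and 41.5% at both stages, against 55.9%, 51.8% and 51.6% with a minimum of 50 CPM, 37.5%, 35.8% and 25.2% with no filter, 59.2%, 54.3% and 65.4% against the SOX10-high cells with ZIC1, and 46.6%, 37.3% and 31.05% with ZIC1 at 50 CPM or more. Leaving out the cells with SOHO-1, LMX1A, DLX3, DLX6, CDH1 or EPCAM together gave no value, since no ZIC1-positive cell of ss11 remained. No paired analysis was possible because each stage is 1 sample with no replicate number. The 14 and 9 ZIC1-positive cells limit the precision.

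The direction of some log2 folds turned, and the cause was not tested beyond the smaller number of cells. Against the SOX10-high cells with ZIC1 the folds at ss11 were 4.15 for SFRP1, 2.77 for CRYAB, 3.5 for ADGRG1, 2.04 for MPZL3 and 4.46 for KRT7, and at ss15 they were 2.03 for RNF122, 0.91 for CRYAB, 5.76 for ADGRG1, 1.93 for CHAC1, 2.91 for MPZL3, 1.62 for CLDN1, 0.22 for EBF3, 0.50 for EPCAM, 0.29 for PLXNA4 and 4.23 for TCF7L1. Without SOHO-1 or LMX1A cells they were 1.79 for KRT7 and 0.72 for MPZL3 at ss11, and at ss15 2.13 for ADGRG1, 0.079 for EBF3, 0.78 for EPCAM and 0.83 for LMX1A. Without DLX3, DLX6, CDH1 or EPCAM cells DRAXIN turned to -1.48 at ss11 and ZEB2 to -0.45 at ss15. Other ss15 folds in that subset were 1.84 for ADGRG1, 0.20 for EBF3, 0.48 for ESRP2, 0.55 for LMX1A, -2.78 for NPAS3 and 0.37 for UNC5B. With 1000000 reads and 2000 genes per cell, ADGRG1 was at 0.35 and NPAS3 at -2.62 at ss15, and without 1 cell NPAS3 was at -0.80. Among cells with PAX7, at ss11 the Wnt list had a median of 0.26 and SFRP1 a fold of 0.38, and at ss15 the folds were 3.18 for ADGRG1, 1.2 for EBF3, 0.098 for LMX1A, 0.23 for TCF7L1 and 0.47 for UNC5B.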
